A study of Mus musculus with 8 samples.

Results

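The genes described here encode the collagen and laminin chains and other structural proteins of the extracellular matrix, as measured in endothelial cells (ECs) of the adult mouse heart. All genes of the count table named as a collagen alpha chain (38 genes) or as a laminin alpha, beta or gamma chain (10 genes) were taken, together with 15 named genes: Nid1, Nid2, Hspg2, Sparc, Sparcl1, Fn1, Eln, Fbn1, Fbln1, Fbln2, Fbln5, Emilin1, Hmcn1, Mgp and Bgn. This gave 63 of the 16791 genes in the table. Single-cell RNA sequencing had been performed on ECs sorted from 4 healthy mice and from 4 mice at 7 days post-MI, with 1 library of counted unique molecular identifiers (UMIs) per mouse. Mice of both groups carried the tamoxifen-inducible Pdgfb-iCreERT2 driver and the Brainbow2.1 (Confetti) fluorescent reporter, 1 copy of each, were 8 to 10 weeks old and male or female, and received 1 dose of 150 mg/kg tamoxifen. MI was induced 14 days after tamoxifen by tying off the left anterior descending artery for good. All hearts were collected 21 days after tamoxifen, and healthy mice had no sham operation, so effects of the ischaemia and of the surgery cannot be told apart. Sorting kept Confetti-positive, CD31-positive, podoplanin-negative cells, so ECs that had not recombined the reporter were not sampled. A cell was counted as endothelial when it held at least 1 UMI of Cdh5 or Kdr and none of Dcn, Rgs5 and Ptprc, which are genes of fibroblasts, pericytes and leukocytes. Of 31028 deposited cells, 25308 met this rule.

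Vascular ECs rest on a basement membrane, a thin sheet built from networks of laminin and type IV collagen that nidogens and the proteoglycan perlecan (Hspg2) tie together. Types XV and XVIII collagen sit at the outer face of that sheet, and fragments released from both (restin and endostatin) are known to act on angiogenesis. Fibrillar collagens, fibronectin and the elastic fibre proteins form the interstitial and arterial wall matrix, which is made largely by fibroblasts and mural cells. SPARC and biglycan bind collagen and regulate how fibrils are laid down.

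Several libraries shared cells, and the healthy libraries did not all look alike. Healthy 228 and Healthy 239 shared 2041 cell barcodes, 2030 of which carried the same RNA in both libraries, and Healthy 227 and Healthy 228 shared 316, of which 301 carried the same RNA. The copy with fewer UMIs was dropped if 90% or more of its UMIs recurred, gene by gene, in its twin, which removed 206 cells of Healthy 227 and 1294 cells of Healthy 228 and left 23808 ECs. Clustering without the 63 genes placed 59.4% and 54.5% of the cells of Healthy 227 and 228 in a cluster led by Tgtp2 and Ly6c2 (1.53% and 2.60% in Healthy 239 and 240), while a cluster led by Car4 and Timp4 was the largest in Healthy 239 and 240, with 43.6% and 41.9% of cells. The ECs used summed to between 4092079 and 6995055 UMIs in healthy mice and between 12433264 and 21481013 UMIs in MI mice, with medians of 1872 to 2724 and of 3375 to 4663 UMIs per cell. Levels of the matrix genes are therefore given as CPM (the UMIs of a gene scaled to a common library total) after TMM scaling unless stated, and shares of cells at an equal depth. The marker levels that follow are CPM without TMM scaling. Among markers of other cell types, the 14 fibroblast genes summed to 97.2 to 144 CPM in healthy and 214 to 298 CPM in MI mice, which came mainly from Pi16 (46.7 to 62.9 CPM in healthy and 109.6 to 156 CPM in MI mice) and Pcolce. Of the 9 fibroblast genes tested, 7 were higher in MI, among them Mmp2 (1.22 to 3.49 CPM in healthy and 8.06 to 19.2 CPM in MI mice), Mfap5, Cthrc1, Serpinf1 and Gsn, and Pdgfra was lower. Of the defining fibroblast markers, Dcn was at 0 by the selection rule, Lum, Dpt and Ddr2 were below 3 CPM in every mouse, and Tcf21 was below 1 CPM. The 9 macrophage genes summed to 32.3 to 399 CPM in healthy and 587 to 1257 CPM in MI mice, and the 10 pericyte genes to 6.86 to 17.3 CPM in healthy and 19.7 to 23.2 CPM in MI mice. Of the 9 macrophage genes tested, 5 were higher in MI, and so were 2 of the 4 pericyte genes tested, Kcnj8 and Abcc9. The 6 smooth muscle genes summed to 33.3 to 67.4 CPM in healthy and 62.5 to 123 CPM in MI mice, and 1 of the 4 tested, Tagln, was higher. The 8 endothelial genes summed to 6164 to 6637 CPM in healthy and 6086 to 6330.1 CPM in MI mice, but 3 of them were lower in MI, namely Cdh5, Emcn and Kdr (771 to 961 CPM in healthy and 406 to 599 CPM in MI mice), and Cdh5 and Kdr are part of the cell rule. The part of the other cell types in the results below was not tested, apart from 2 kinds of fit given with the results. One left out the clusters of other cell types, and the other left out cells with a UMI of a mural or fibroblast marker. The latter kept 12051 of the 23808 ECs, so it rests on far fewer cells that had passed the rule. Its markers included Pi16 and Pcolce, and 1 UMI was enough to leave a cell out. A deeper cell has more chance of holding such a UMI, and the cells of MI mice were deeper. Whether the cells left out in this fit were ECs or other cell types was not tested.

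To ask how the matrix genes of ECs differed after MI, UMIs were summed over the ECs of each mouse and compared between groups. Of the 63 genes, 36 had enough UMIs for the test, 21 of which were higher in MI, 1 was lower and 14 did not pass the threshold. The other 27 genes were too low in these cells to be tested. Over all 12140 genes tested, 18.1% were higher and 18.0% lower in MI. The groups did not overlap for 18 of the 21 genes, and 18.3% of all tested genes had all MI mice above all healthy mice. The median log2 fold change was 0.68 over the 36 matrix genes and -0.02 over all genes. Of the 15 collagen chains tested, 10 were higher and none was lower. Of the 7 laminin chains, 2 were higher and 1 was lower, with a median log2 fold change of 0.0034. Of the 14 other genes tested, 9 were higher. The filter on low counts was met in fewer than 4 healthy mice by 7 of the 36 genes, Col1a1, Col1a2, Col3a1, Col16a1, Col25a1 and Col27a1 among them, and the 4 of them that were higher, all collagens, had passed the filter through the MI mice. Without these 7 genes, 17 of 29 matrix genes were higher and 1 was lower, and 6 of 9 collagen chains were higher. In the plot of levels by mouse, the genes are ordered by their difference between the groups.

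**Figure D1:**
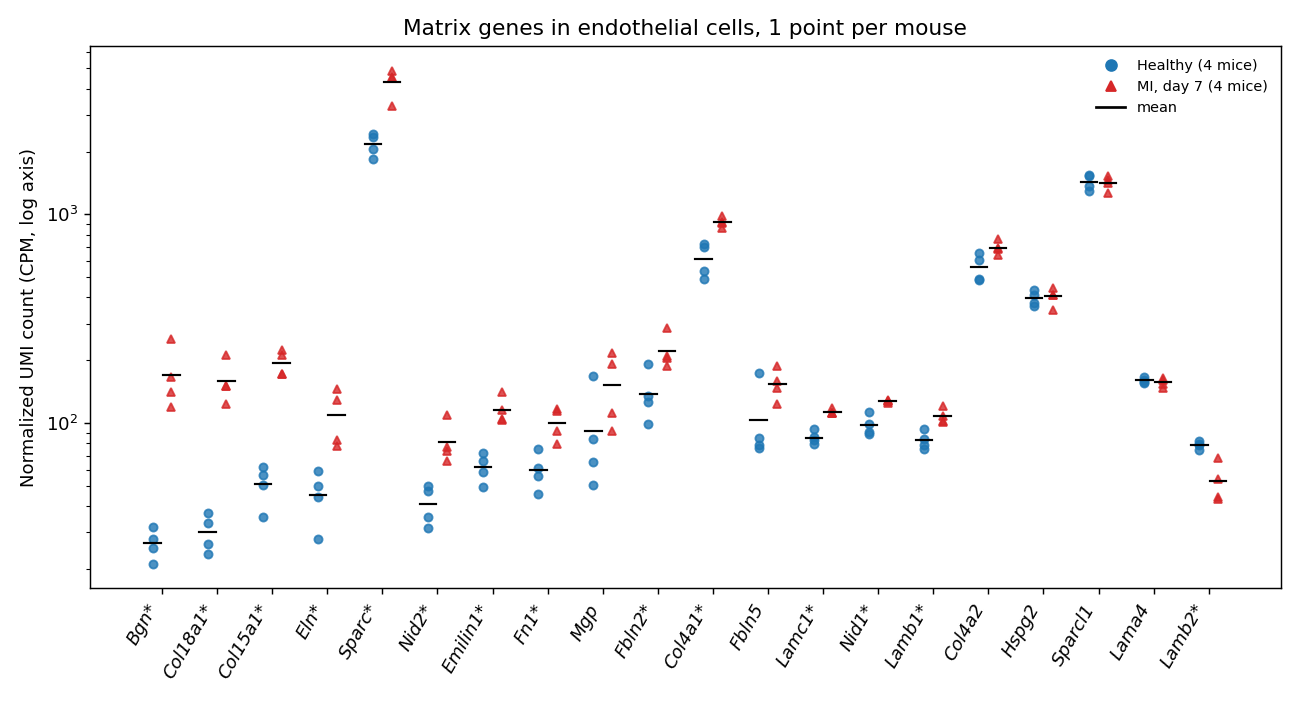
Normalized UMI counts (CPM, log axis) of the 20 matrix genes whose mean level reached 50 CPM, for each healthy mouse (circles) and each MI mouse (triangles), with the group mean as a line. A star marks genes with an adjusted p under 0.05: Bgn, Col18a1 and Col15a1 at the left show the widest gap, Sparcl1, Hspg2 and Lama4 at the right overlap, and Lamb2 is the gene whose MI mice all lie below the healthy mice.

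Type IV collagen forms the network of the basement membrane, and its most widespread form is built from alpha1 and alpha2 chains, encoded by Col4a1 and Col4a2. The genes lie head to head (Col4a1 at chr8:11198423-11312826, minus strand, Col4a2 at chr8:11312805-11449287, plus strand, GRCm38), and the RefSeq starts of the transcripts face each other with 22 bases in common at chr8:11312805-11312826. These bases are shown because both genes begin inside them, and are given on the plus strand with no part marked. They lie far from the 3′ ends that the assay counts.
Col4a1 and Col4a2 start overlap: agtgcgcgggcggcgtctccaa
Col4a1 stood at 723, 699, 489.7 and 537 CPM in Healthy 227, 228, 239 and 240, and at 980.1, 916, 865 and 912 CPM in MI 244, 250, 255 and 256. All 4 MI mice were above all healthy mice, and within the healthy group 227 and 228 were higher than 239 and 240. The rise was 1.5-fold (log2 fold change 0.59 ± 0.13 (SE), adjusted p = 0.00681, edgeR quasi-likelihood test over all genes). Col4a2 stood at 608, 656, 483 and 489.5 CPM in the healthy mice, in the same order, and at 764, 687, 638 and 681 CPM in the MI mice. Healthy 228 lay above MI 255, so the groups overlapped, and Col4a2 did not pass the threshold (log2 fold change 0.31 ± 0.11 (SE), adjusted p = 0.0588). It did pass in 6 of the 19 other fits, namely without Healthy 228 (log2 fold change 0.39, adjusted p = 0.0261), without Healthy 227 and 228 (0.51, 0.0108), with the copied cells of both kept (0.34, 0.0243), with DESeq2 (0.33, 0.0233), without cells with a UMI of a mural or fibroblast marker (0.35, 0.0421) and without the clusters of other cell types (0.32, 0.0492). The other 4 chains of type IV collagen were at the limit of detection, with 0 to 72 UMIs over all 8 mice, of which Col4a6 had 0 and Col4a4 had 72.

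Laminin trimers take 1 alpha, 1 beta and 1 gamma chain, and those of the endothelial basement membrane are known to carry Lama4 or Lama5 with Lamb1 or Lamb2 and Lamc1. The gamma chain Lamc1 rose 1.33-fold, from 83.0, 93.7, 79.2 and 85.6 CPM in the healthy mice to 119, 111, 112 and 112 CPM in the MI mice (log2 fold change 0.41 ± 0.07 (SE), adjusted p = 0.00274). The beta chain Lamb1 rose from 78.8, 75.1, 83.7 and 93.9 CPM to 121, 101, 108 and 102 CPM (log2 fold change 0.38 ± 0.09 (SE), adjusted p = 0.0113). For both genes the MI mice all lay above the healthy mice. The alternative beta chain Lamb2 fell, from 79.7, 78.7, 82.2 and 74.1 CPM to 43.6, 54.2, 44.4 and 68.3 CPM (log2 fold change -0.58 ± 0.14 (SE), adjusted p = 0.00975), and was the only one of the 36 genes that was lower. Its MI mice all lay below its healthy mice, and MI 256 was the closest to them. Without Healthy 227 and 228, the Lamb1 and Lamb2 values were 0.28 (adjusted p = 0.0763) and -0.58 (adjusted p = 0.0522). Neither alpha chain of these trimers passed the threshold. Lama4 was at 161, 157, 156 and 167 CPM in the healthy and at 165, 160.4, 148 and 153 CPM in the MI mice, with overlapping groups (log2 fold change -0.04 ± 0.07 (SE), adjusted p = 0.711). Lama5 was at 22.6 ± 4.10 CPM in healthy and 22.6 ± 2.02 CPM in MI mice (SD, n = 4 each, adjusted p = 0.987). Lama3, a chain best known from epithelia, did not pass the threshold, and Lama1, Lama2 and Lamb3 had 4, 12 and 16 UMIs in all.

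Of the molecules that link the laminin and collagen networks, both nidogens rose and perlecan did not pass the threshold. Nid1 stood at 113, 98.6, 89.1 and 90.9 CPM in the healthy mice and at 128, 129, 128 and 125 CPM in the MI mice (log2 fold change 0.38 ± 0.08 (SE), adjusted p = 0.00709). Nid2 rose 1.98-fold, from 35.7, 31.3, 49.8 and 47.2 CPM to 109, 77.1, 73.3 and 65.9 CPM (log2 fold change 0.98 ± 0.19 (SE), adjusted p = 0.00374). The groups did not overlap for either gene, and MI 244 held the highest Nid2 level. Perlecan (Hspg2, chr4:137468769-137570630, plus strand) was at 365, 377, 411 and 436 CPM in the healthy mice and at 413, 412, 350.3 and 442 CPM in the MI mice. Its lowest and highest values were both in the MI group, and the difference was within the spread of the mice (log2 fold change 0.02 ± 0.09 (SE), adjusted p = 0.859).

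Types XV and XVIII collagen were higher in MI over all ECs. These ECs include a cluster that came almost wholly from MI mice (C4, below). It held a large part of the MI counts of both genes and of Bgn. Col15a1 (type XV collagen, chr4:47208161-47313167, plus strand) was at 35.7, 50.5, 61.4 and 56.7 CPM in the healthy mice and at 213, 172, 223 and 172 CPM in the MI mice. Every MI mouse was above every healthy mouse, and the mean was 3.82-fold higher (log2 fold change 1.93 ± 0.16 (SE), adjusted p = 0.000173). Col18a1 (type XVIII collagen, the source of endostatin, chr10:77052178-77166548, minus strand) was at 23.7, 26.4, 33.3 and 37.1 CPM in the healthy mice and at 151, 123, 213 and 150.0 CPM in the MI mice, a 5.29-fold difference of the means (log2 fold change 2.39 ± 0.19 (SE), adjusted p = 0.000173). Again the groups did not overlap, and MI 255 was the highest. Biglycan (Bgn, chrX:73483602-73495933, plus strand), a small leucine-rich proteoglycan that binds collagen fibrils, showed the highest fold among the genes whose mean reached 50 CPM, with 31.8, 25.4, 28.0 and 21.2 CPM in the healthy mice and 167, 119, 253 and 140.3 CPM in the MI mice. This was a 6.38-fold difference (log2 fold change 2.68 ± 0.24 (SE), adjusted p = 0.000173), and MI 255 was again the highest. These 3 genes kept an adjusted p under 0.05 in all 8 fits that left out a mouse and in all 11 other fits, over which the log2 fold change ranged from 1.72 to 2.19 for Col15a1, from 1.95 to 2.51 for Col18a1 and from 2.24 to 2.82 for Bgn.

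The 250 bases before the RefSeq start (GRCm38.p6) are shown for Bgn and Col15a1, as genes that rose together and whose windows hold no annotated exon. The RefSeq start of Col15a1, at base 47208012 of chromosome 4, lies upstream of the start of the annotated gene given above, and that of Bgn is at base 73483601 of chromosome X. Both are on the plus strand, Bgn at chrX:73483351-73483600 and Col15a1 at chr4:47207762-47208011. Capitals mark matches to the GC box GGGCGG on either strand, 2 of which overlap by 2 bases in Bgn. The letters TGANTCA (a binding motif of AP-1), CCAAT and TATAAA were also searched on both strands and are in neither window.
Bgn: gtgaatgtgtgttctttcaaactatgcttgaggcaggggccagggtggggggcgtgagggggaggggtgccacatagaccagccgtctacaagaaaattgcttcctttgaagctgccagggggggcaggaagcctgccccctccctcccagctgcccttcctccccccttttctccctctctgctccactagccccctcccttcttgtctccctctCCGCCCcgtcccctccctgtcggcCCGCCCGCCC
Col15a1: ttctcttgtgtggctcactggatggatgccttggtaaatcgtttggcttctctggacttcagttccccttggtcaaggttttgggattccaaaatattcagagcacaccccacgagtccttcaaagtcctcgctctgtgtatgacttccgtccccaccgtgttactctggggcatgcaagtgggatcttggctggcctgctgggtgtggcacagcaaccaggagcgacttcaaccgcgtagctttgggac
Windows of this kind were found for 45 of the 63 genes. GGGCGG was present in 28 of these 45 genes (62.2%) and in 35.4% of all 27025 genes with such a window. It was in 9 of the 15 genes with a window that were higher in MI (60%) and in 6 of the 9 that did not pass the threshold (66.7%). CCAAT was present in 33.3% of the 45 genes and 37.5% of all genes, TATAAA in 11.1% and 14.3%, and TGANTCA in 2.22% and 7.82%.

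Sparc and Sparcl1 encode related collagen-binding matricellular proteins, of which the first passed the threshold and the second did not. Sparc (chr11:55394500-55423183, minus strand) was at 2059.9, 1844, 2349.6 and 2422 CPM in the healthy mice and at 4883, 4528, 4524 and 3292 CPM in the MI mice. The groups did not overlap, MI 256 was the lowest of the MI mice, and the mean rose 1.99-fold (log2 fold change 0.99 ± 0.14 (SE), adjusted p = 0.000901). Sparcl1 (chr5:104079111-104113733, minus strand) was at 1294, 1371, 1537 and 1526 CPM in the healthy mice and at 1519, 1466, 1266 and 1419 CPM in the MI mice. The groups overlapped, and the difference was close to 0 (log2 fold change -0.01 ± 0.09 (SE), adjusted p = 0.914).

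Elastic fibres are made of an elastin core (Eln) on fibrillin microfibrils (Fbn1), with emilin and fibulins attached. Eln rose from 49.8, 28.0, 58.9 and 44.2 CPM in the healthy mice to 77.4, 83.4, 146 and 129 CPM in the MI mice (log2 fold change 1.26 ± 0.25 (SE), adjusted p = 0.00474), and MI 255 and 256 were the highest. Emilin1 rose from 49.6, 72.2, 58.2 and 65.6 CPM to 104, 141, 115 and 104 CPM (log2 fold change 0.92 ± 0.14 (SE), adjusted p = 0.00123). Fbn1 rose from 27.6 ± 2.60 CPM to 42.8 ± 4.89 CPM (SD, n = 4 each, adjusted p = 0.00244). The healthy and MI mice did not overlap for these 3 genes. Fbln2 was at 98.8, 136, 191 and 126 CPM in the healthy mice and at 211, 187, 286 and 205 CPM in the MI mice, so that Healthy 239 reached the level of MI 250. Fbln2 was higher in MI (log2 fold change 0.68 ± 0.20 (SE), adjusted p = 0.0219), but the call was lost without Healthy 228 (adjusted p = 0.0513), without Healthy 240 (0.0517), without MI 255 (0.0607), without the cluster led by Tgtp2 (log2 fold change 0.44, adjusted p = 0.0645), without Healthy 227 and 228 (0.48, adjusted p = 0.129) and when cells with a UMI of a mural or fibroblast marker were left out (log2 fold change 0.27, adjusted p = 0.210). Fbln5, which is needed to assemble elastic fibres, was at 84.9, 79.0, 173 and 76.5 CPM and 147, 124, 187 and 159 CPM. It did not pass the threshold (log2 fold change 0.57 ± 0.25 (SE), adjusted p = 0.103), and Healthy 239 stood far above the other healthy mice. Without that mouse the log2 fold change of Fbln5 was 0.95 (adjusted p = 0.00240), with thinning it was 0.74 (adjusted p = 0.0333), and without the cluster led by Tgtp2 it was 0.0067 (adjusted p = 0.987).

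Fibronectin (Fn1), a glycoprotein of provisional wound matrix to which integrins bind, rose from 56.0, 45.8, 75.0 and 60.9 CPM in the healthy mice to 91.5, 79.1, 117 and 114 CPM in the MI mice (log2 fold change 0.75 ± 0.16 (SE), adjusted p = 0.00710). MI 250 was only just above Healthy 239. The call was lost without Healthy 227 and 228 (log2 fold change 0.56, adjusted p = 0.0543), without the cluster led by Tgtp2 (0.40, adjusted p = 0.0870), and without the cells that held a UMI of a mural or fibroblast marker (0.42, adjusted p = 0.0587). Matrix Gla protein (Mgp), an inhibitor of vascular calcification, was at 50.4, 84.1, 168 and 65.0 CPM and 91.4, 112, 192 and 216 CPM and did not pass the threshold (log2 fold change 0.73 ± 0.38 (SE), adjusted p = 0.160). Healthy 239 was higher than MI 244 and MI 250, and without Healthy 239 the log2 fold change of Mgp was 1.2 (adjusted p = 0.0192). Hemicentin-1 (Hmcn1) was at 48.7 ± 1.66 CPM and 41.8 ± 10.1 CPM (SD, n = 4 each, adjusted p = 0.289), and passed the threshold without cells with a UMI of a mural or fibroblast marker (log2 fold change -0.59, adjusted p = 0.0321).

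Fibrillar and other low collagens followed. The chains of types I and III collagen, the main products of cardiac fibroblasts, were close to absent from healthy ECs. Col1a1 had 6 UMIs over the 4 healthy and 133 over the 4 MI mice, Col1a2 had 10 and 200, and Col3a1 had 4 and 228. As pooled rates these were ratios of 6.92 (95% exact interval 3.10 to 19.2), 6.25 (3.33 to 13.2) and 17.8 (6.86 to 65.9), and the intervals cover counting error only. All 4 healthy UMIs of Col3a1 came from Healthy 239. Its log2 fold change was 4.06 with all mice and 3.57 to 8.36 when each mouse was left out. By mouse, Col3a1 was at 0, 0, 0.619 and 0 CPM in the healthy and 2.85, 2.70, 2.54 and 4.54 CPM in the MI mice, Col1a1 at 0.579, 0, 0.155 and 0.295 CPM and 1.54, 1.80, 1.14 and 3.03 CPM, and Col1a2 at 0, 1.04, 0.464 and 0.442 CPM and 2.40, 2.18, 2.54 and 3.98 CPM. The groups did not overlap for any of them, and all 3 were called higher (adjusted p = 0.00682, 0.00456 and 0.00215 for Col1a1, Col1a2 and Col3a1). All 3 had too few UMIs to be tested when cells with a UMI of a mural or fibroblast marker were left out or when cells were thinned to 1000 UMIs, and Col1a1 also without MI 244, MI 250 or MI 256. The share of ECs with a UMI of each, given below, was not above that of leukocytes. The alpha2 chain of type V collagen (Col5a2), which copolymerizes with type I, was called in all 8 fits that left out a mouse and all 11 others, at 5.91 ± 2.68 CPM in healthy and 26.8 ± 11.9 CPM in MI mice (log2 fold change 2.20 ± 0.39 (SE), adjusted p = 0.00267). The other chains called higher were Col27a1 at 1.27 ± 0.448 and 3.57 ± 0.529 CPM, Col13a1 at 4.07 ± 1.58 and 8.62 ± 2.29 CPM, and Col8a1 at 22.3 ± 7.24 and 37.8 ± 11.6 CPM (SD, n = 4 each, adjusted p = 0.00321, 0.0177 and 0.0461). Col27a1 had too few UMIs to be tested with cells thinned to 1000 UMIs or without cells with a UMI of a mural or fibroblast marker. The Col13a1 call was lost without MI 244 (adjusted p = 0.0508), without Healthy 227 and 228 (0.0956) and without cells with a UMI of a mural or fibroblast marker (0.649). That of Col8a1 was lost without any 1 of Healthy 227, 228 and 240 and MI 244, 255 and 256, when adjusted p ranged from 0.0674 to 0.123. It was also lost without cells with a UMI of a mural or fibroblast marker (log2 fold change 0.25, adjusted p = 0.550), without the cluster led by Tgtp2 (0.28, 0.417), without Healthy 227 and 228 (0.50, 0.241), with thinning (0.58, 0.112), with copied cells kept (0.0503) and with ECs chosen by Pecam1 and Cdh5 (0.0997). Col6a3, Col16a1, Col25a1 and Col28a1 were tested and did not pass the threshold, and Col28a1 passed without cells with a mural or fibroblast UMI (log2 fold change 1.25, adjusted p = 0.0163). The 27 genes that could not be tested held 0 to 91 UMIs each over all 8 mice, and 18 of them had fewer than 30. They include all chains of types VI, IX and XI collagen other than Col6a3, and Fbln1, Col14a1 and Col5a1. Fbln1 and Col14a1 were called higher in MI with DESeq2, with no filter on low counts, and with any 1 healthy mouse left out. They held 7 and 2 UMIs in healthy and 79 and 89 in MI mice. Without a healthy mouse they passed the filter through the MI mice, so the direction of those calls was set by the filter. At 1000 UMIs per cell, Col14a1 was found in 0.114% of MI ECs and 3.11% of leukocytes of MI mice, and Fbln1 in 0.0991% and 0%. Without the rule on Dcn, Rgs5 and Ptprc, Fbln1, Col14a1 and Col5a1 were called higher.

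Because the groups differed in the clusters their cells fell into, the comparison was repeated inside each cluster with at least 20 cells in at least 3 mice per group. The 7 clusters tested were C0 (4018 cells, led by Car4 and Timp4 and not named), C1 (4120 cells, stress response-like), C2 (2991, arterial-like), C3 (2721, Apln sprouting-like), C6 (1630, venous-like), C7 (1582, interferon-like) and C8 (1364, G2 or mitosis-like). Matrix genes were called higher 5 times in C0, 10 in C1, 13 in C2, 7 in C3, 5 in C6, 9 in C7 and 2 in C8, among 22 to 26 tested in each. The share of all tested genes called higher in the same clusters was 2.79%, 4.70%, 4.03%, 4.03%, 2.67%, 3.80% and 0.519%. Matrix genes were called lower 1 time in C0 (Hmcn1), 1 in C7 (Lamb2), 2 in C6 (Lamb2 and Mgp) and 3 in C3 (Lama4, Lamb1 and Col28a1), beside 3.55%, 5.09%, 3.90% and 4.74% of all genes. No matrix gene was called lower in C1, C2 and C8, where 5.38%, 5.37% and 0.692% of all genes were. In C8 only 3 healthy mice had enough cells. Of the 28 matrix genes tested in at least 1 cluster, 18 were higher in at least 1 and 6 were lower in at least 1. The shares of all genes given above are for single clusters, so they are no reference for these 2 counts. Of the 58 calls, 29 held in every fit that left out a mouse, and 28 of these were higher in MI. With cells thinned to 1000 UMIs, or without cells that held a UMI of a mural or fibroblast marker, 11 genes in place of 18 were higher in at least 1 cluster. Leaving out the cells with such a UMI kept 375 of the 1630 cells of C6, 420 of the 1364 of C8 and 1123 of the 2721 of C3. Pi16, which is among these markers, was also among the leading genes of C6.

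**Figure D2:**
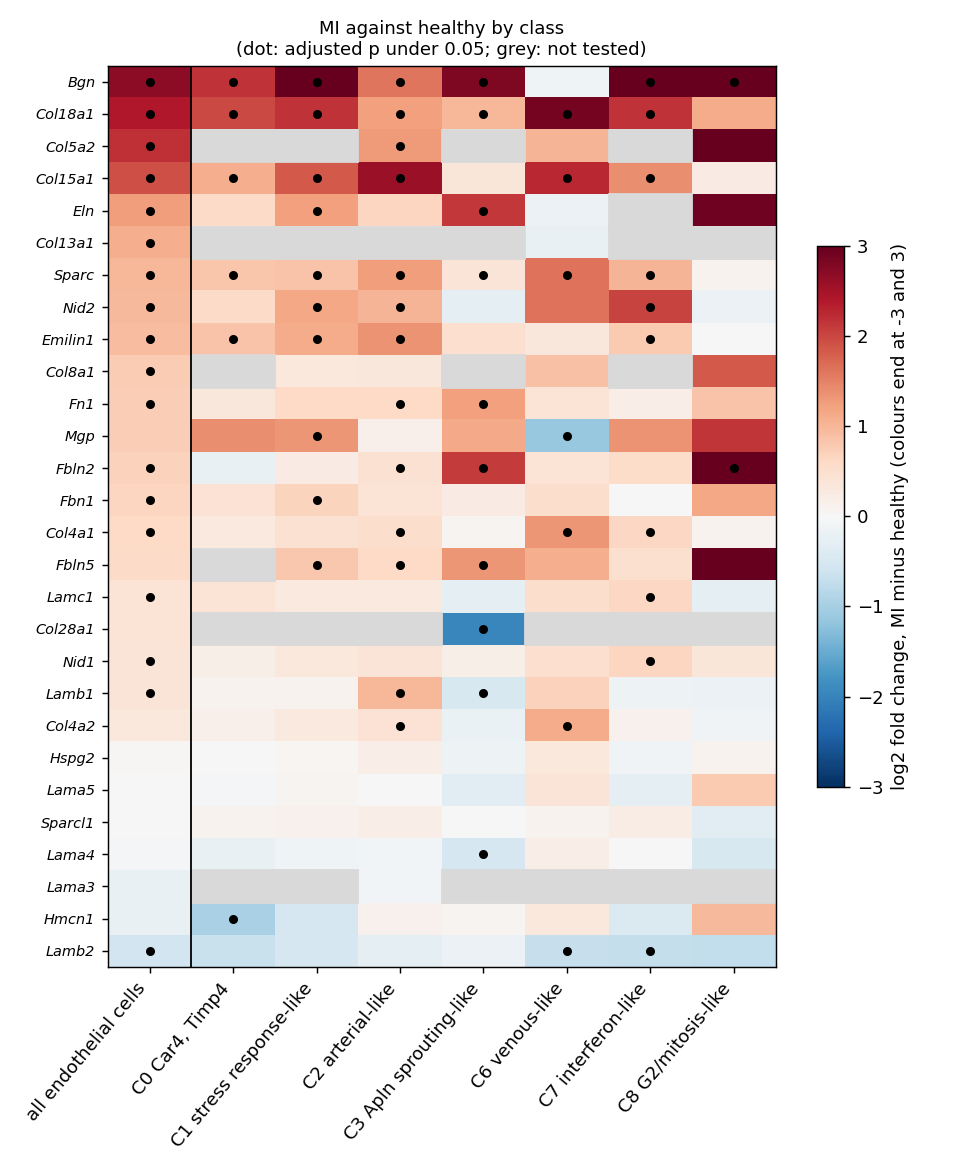
Log2 fold change (MI minus healthy) of the 28 matrix genes tested in at least 1 cluster, for all ECs (left column) and for each of the 7 clusters. Dots mark an adjusted p under 0.05 and grey cells were not tested: Sparc, Col18a1 and Bgn are marked in 6 clusters each, and Lamb1 and Mgp change colour between clusters.

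Sparc, Col18a1 and Col15a1 were higher in most clusters. In arterial-like C2, Sparc rose from 1606 ± 237 to 3854 ± 854 CPM (SD, n = 4 each, log2 fold change 1.26 ± 0.16 (SE), adjusted p = 0.000331), and in venous-like C6 from 1079 ± 389.8 to 3406 ± 825 CPM (log2 fold change 1.63 ± 0.23 (SE), adjusted p = 0.000723). Sparc was also called in C0, C1, C3 and C7, at 0.84, 0.87, 0.40 and 1.01 on the log2 scale, and not in C8 (log2 fold change 0.09 ± 0.14 (SE), adjusted p = 0.8294). The C3 call was lost without Healthy 228 or 240 or MI 244, 250 or 255, with adjusted p of up to 0.0674. Col18a1 rose in C6 from 9.63 ± 10.2 to 61.7 ± 12.9 CPM (log2 fold change 2.87 ± 0.42 (SE), adjusted p = 0.00108), where the 4 healthy mice held 8 UMIs in all, and in C2 from 141 ± 31.0 to 329 ± 58.8 CPM (log2 fold change 1.23 ± 0.16 (SE), adjusted p = 0.000333). It was also called in C0, C1, C3 and C7, and the C3 call was lost without any 1 of Healthy 227, 239 and 240 (adjusted p of up to 0.0843) and with thinning (0.0673). The C6 call was lost without cells with a UMI of a mural or fibroblast marker, although the log2 fold change was then larger (5.92, adjusted p = 0.150). Col15a1 rose in C2 from 6.22 ± 5.08 to 46.4 ± 8.13 CPM (log2 fold change 2.60 ± 0.32 (SE), adjusted p = 0.000331) and in C6 from 37.6 ± 7.59 to 186 ± 26.1 CPM (log2 fold change 2.27 ± 0.21 (SE), adjusted p = 4.87e-05), and it was called in C0, C1 and C7 too. In C2 the 4 healthy mice held 24 UMIs of Col15a1 in all, and its log2 fold change there was 2.39 to 3.33 when each mouse was left out. In Apln sprouting-like C3, where healthy Col15a1 was already at 158 ± 28.1 CPM, it did not pass (log2 fold change 0.36 ± 0.14 (SE), adjusted p = 0.119).

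Bgn was called in every tested cluster but the venous-like one. The call was lost without Healthy 239 in C3 (adjusted p = 0.0655) and without any 1 of Healthy 227, 239 and 240 in C7 (up to 0.0614) and C8 (up to 0.147), where the healthy mice held 11, 7 and 3 UMIs of Bgn in all. It was also lost in C3 with DESeq2 (log2 fold change 3.26, adjusted p = 0.0724), where the log2 fold change of 2.79 ranged from 2.23 to 9.48 without a mouse, and with thinning in C2 (1.09 against 1.60, adjusted p = 0.0919) and C8 (3.43 against 4.65, adjusted p = 0.159). In C1 it rose from 7.62 ± 5.39 to 55.1 ± 25.8 CPM (log2 fold change 3.18 ± 0.47 (SE), adjusted p = 0.000430) and in C0 from 5.75 ± 4.23 to 38.3 ± 7.44 CPM (log2 fold change 2.18 ± 0.29 (SE), adjusted p = 0.000950). In C6 it was high in both groups, with 400.2 ± 195 CPM in healthy and 345 ± 10.1 CPM in MI mice (log2 fold change -0.13 ± 0.24 (SE), adjusted p = 0.823). Healthy 227 and 228 were at 612 and 519 CPM there, Healthy 239 and 240 at 259 and 212 CPM, and the MI mice at 338 to 360 CPM, between these pairs. The type IV chains showed another pattern. Col4a1 rose in C6 from 258 ± 32.9 to 645 ± 63.3 CPM (log2 fold change 1.33 ± 0.15 (SE), adjusted p = 0.000156) and Col4a2 from 215 ± 22.3 to 472 ± 61.4 CPM (log2 fold change 1.11 ± 0.15 (SE), adjusted p = 0.000551). Col4a1 was also called in C7 (0.63, adjusted p = 0.0161) and C2 (0.53, 0.0199), and Col4a2 in C2 (0.44, 0.0164). The calls in C7 and C2 were lost with thinning and without cells with a UMI of a mural or fibroblast marker, and those in C2 also without some single mice. In C3 the values were 997 ± 291 and 1041 ± 60.6 CPM for Col4a1 and 905 ± 255 and 770.3 ± 72.0 CPM for Col4a2, and neither passed (adjusted p = 0.796 and 0.468). The healthy mice were split there. Col4a1 was at 1307 and 1180 CPM in Healthy 227 and 228 and at 791 and 711 CPM in Healthy 239 and 240, and at 979 to 1124 CPM in MI mice. Col4a2 was at 1071 and 1174 CPM in Healthy 227 and 228 and at 719 and 658 CPM in Healthy 239 and 240, and at 671 to 834 CPM in MI mice. Of the nidogens, Nid2 rose in C7 from 19.5 ± 8.56 to 82.5 ± 11.2 CPM (log2 fold change 2.02 ± 0.27 (SE), adjusted p = 0.000507) and in C2 from 23.2 ± 9.13 to 51.1 ± 10.9 CPM (log2 fold change 1.02 ± 0.23 (SE), adjusted p = 0.00998). The C2 call of Nid2 was lost with thinning (log2 fold change 1.11, adjusted p = 0.0751) and without cells with a UMI of a mural or fibroblast marker (0.94, 0.0962), and without those cells the C6 call of Col4a2 was lost too (0.98, 0.0513), at log2 fold changes close to those of all cells. Emilin1 rose in C2 from 32.5 ± 7.77 to 87.8 ± 22.1 CPM (log2 fold change 1.34 ± 0.20 (SE), adjusted p = 0.000779). Eln was called in C1 (10.9 and 20.6 CPM, adjusted p = 0.0157) and C3 (4.24 and 17.2 CPM, 0.0202). Both calls were lost without Healthy 240, among other fits. Eln did not pass in C2 (122 and 186 CPM, log2 fold change 0.64, adjusted p = 0.0545) or C6 (323 and 284 CPM, -0.17, 0.662). Among the clusters where Eln was tested, these held its highest levels. Fbln2 rose in C3 from 12.7 ± 4.42 to 52.2 ± 4.0 CPM (log2 fold change 2.11 ± 0.24 (SE), adjusted p = 0.000105), where the healthy mice held 20 UMIs. Lamc1 and Nid1 were called only in C7 (0.62, adjusted p = 0.0350, and 0.66, 0.0472) and Fbn1 only in C1 (0.68, 0.0445). These calls held in 3, 2 and 2 of the 8 fits that left out a mouse. The log2 fold changes of Lamc1, Nid1 and Fbn1 were above 0 in 5, 7 and 6 of the 7 clusters. That of Lamc1 was -0.30 in C3 and -0.29 in C8. Lama4 fell in C3, from 322 ± 43.3 to 222 ± 10.0 CPM (log2 fold change -0.51 ± 0.12 (SE), adjusted p = 0.0121), and this was the one lower call that held without each mouse in turn. It was lost with thinning (-0.36, adjusted p = 0.244) and without cells with a UMI of a mural or fibroblast marker (-0.38, adjusted p = 0.182).

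The 2 genes called higher in 1 cluster and lower in another were Lamb1 and Mgp. Lamb1 was higher in MI in C2, with 25.8 ± 7.6 and 54.8 ± 6.04 CPM (log2 fold change 0.99 ± 0.19 (SE), adjusted p = 0.00344), and lower in C3, with 188 ± 31.8 and 129.7 ± 9.45 CPM (log2 fold change -0.49 ± 0.13 (SE), adjusted p = 0.0296). The C2 call was lost at a clustering resolution of 0.3 (log2 fold change 0.32, adjusted p = 0.248). The C3 call was lost without Healthy 227, 228 or 240 or MI 250 or 255, with adjusted p of up to 0.0857. It was also lost with thinning (0.210), without cells with a UMI of a mural or fibroblast marker (0.225) and in other clusterings (0.0712 at a resolution of 1, and 0.0861 with the matrix genes kept in). The difference between the 2 clusters was tested itself, in a fit over both clusters with each mouse as a block, and was 1.44 ± 0.20 (SE), adjusted p = 9.64e-08 on the log2 scale. It was 1.23 to 1.68 when each mouse was left out. Mgp was higher in MI in C1, with 17.9 ± 13.5 and 40.5 ± 14.4 CPM (log2 fold change 1.32 ± 0.40 (SE), adjusted p = 0.0428), and lower in C6, with 275 ± 72.8 and 123 ± 64.8 CPM (log2 fold change -1.15 ± 0.33 (SE), adjusted p = 0.0488). The C1 log2 fold change ranged from 0.63 to 2.07 when each mouse was left out, and the call was lost without any 1 of Healthy 227 and 240 and MI 250, 255 and 256 (adjusted p of up to 0.344, with 0.63 and 0.344 without Healthy 240). It was also lost in C1 with DESeq2 (log2 fold change 1.19, adjusted p = 0.129), with thinning (1.51, 0.0778), without cells with a UMI of a mural or fibroblast marker (1.08, 0.194), without the rule on Dcn, Rgs5 and Ptprc (1.24, 0.0505) and at a clustering resolution of 1 (1.30, 0.0531). The C6 call was lost without any 1 of the 4 healthy mice and MI 250 and 255 (up to 0.155), with thinning (-1.02, adjusted p = 0.0911), without the rule on Dcn, Rgs5 and Ptprc (-1.14, adjusted p = 0.0515) and without cells with a UMI of a mural or fibroblast marker (-0.07, adjusted p = 0.973). The difference C1 minus C6 was 2.33 ± 0.29 (SE), adjusted p = 3.52e-07, and 1.62 to 3.17 when each mouse was left out. Both pairs of clusters were chosen after the values had been seen. Over all genes, 4.22% differed between C2 and C3 in this test, as did 10 of 27 matrix genes. Among these, the log2 fold change was higher in C2 for Sparc (0.85 ± 0.08 (SE), adjusted p = 3.35e-13), Col15a1 (2.32 ± 0.29 (SE), adjusted p = 1.74e-09), Nid2 (1.30 ± 0.21 (SE), adjusted p = 4.57e-06) and Col4a2 (0.60 ± 0.10 (SE), adjusted p = 1.09e-05). Nid2 and Col4a2 did not pass in C3, at log2 fold changes of -0.27 and -0.20. The log2 fold change of Fbln2 was higher in C3 (-1.64 ± 0.28 (SE), adjusted p = 2.08e-05). Its level was higher in C2, at 465 ± 56.5 CPM in healthy and 642 ± 89.6 CPM in MI mice. Between C1 and C6, 0.730% of all genes and 7 of 26 matrix genes differed. The log2 fold change of Bgn was higher in C1 (2.78 ± 0.39 (SE), adjusted p = 7.33e-06), and in C6 it was -0.13 and not called. That of Col4a1 was higher in C6 (-0.84 ± 0.14 (SE), adjusted p = 0.000213).

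The levels of the genes by cluster are given as a description, as CPM without TMM scaling and separately for each group. Arterial-like C2 held the highest levels of Fbln5, at 650.3 ± 163 CPM in healthy and 1036 ± 169 CPM in MI mice (SD, n = 4 each), against 19.8 to 162 CPM in the other clusters of MI mice with at least 3 mice. It also led in Fbln2 (448 ± 54.9 and 654 ± 99.3 CPM), Fn1 (259 ± 66.6 and 408 ± 49.1 CPM) and Col8a1 (121 ± 8.40 and 162 ± 20.6 CPM), and it was the lowest in Col15a1 and Lama4 (72.8 ± 11 and 73.7 ± 7.23 CPM). Among clusters with at least 3 mice, venous-like C6 led in Eln (304 ± 95.7 and 287 ± 42.1 CPM) and Col13a1 (49.9 ± 9.69 and 44.2 ± 7.88 CPM). Col13a1 was at 12.9 CPM or below in the other such clusters of MI mice. In Apln sprouting-like C3, Lama4 was at 311 ± 40.6 and 224 ± 12.3 CPM and Nid2 at 160.0 ± 24.5 and 137 ± 21.5 CPM, and C3 led in both among clusters of MI mice with at least 3 mice. It was the lowest of these in Lama5, at 11.9 ± 2.55 CPM in MI mice, and its Lamb2 level (45.0 ± 7.81 and 42.7 ± 12.8 CPM) was below that of C2 (119 ± 5.73 and 103 ± 10.1 CPM).

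A cluster of 2396 cells, C4, was led by Lrg1, Plvap and Ackr1 and came almost wholly from MI mice (99.9% of its cells), so no healthy level can be set beside it. C4 made up 16.3%, 10.8%, 29.5% and 10.9% of the ECs of MI 244, 250, 255 and 256. It held 6181 of the 14996 MI UMIs of Col15a1, 6056 of the 12107 of Col18a1 and 6398 of the 13060 of Bgn. In the 4 MI mice it held the highest levels of Sparc (5651 ± 594 CPM), Col4a1 (1445 ± 229.6 CPM), Col4a2 (1085 ± 161 CPM), Col15a1 (399 ± 27.9 CPM) and Col18a1 (394 ± 43.5 CPM) among clusters with at least 3 mice. Sparc in C4 and C3 (5296 ± 672 CPM) differed by less than the SD of either cluster. Col18a1 in C4 and C2 (335 ± 63.3 CPM) differed by less than the SD of C2 and more than that of C4. Col4a1 was above C3 (1048 ± 37.0 CPM) by more than 1 SD. The same 4 mice gave all these levels, and differences between clusters within a mouse were not tested. Bgn was at 395 ± 35.7 CPM in C4 and 349 ± 2.94 CPM in C6. Small cluster C12 (102 cells, led by Igfbp5 and Cytl1 among others, not named) reached 20 cells only in MI 255, where Mgp was at 2805 CPM, Bgn at 838, Hmcn1 at 412, Eln at 389.8 and Col5a2 at 206 CPM. These are values of 1 library and have no replicate.

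**Figure D3:**
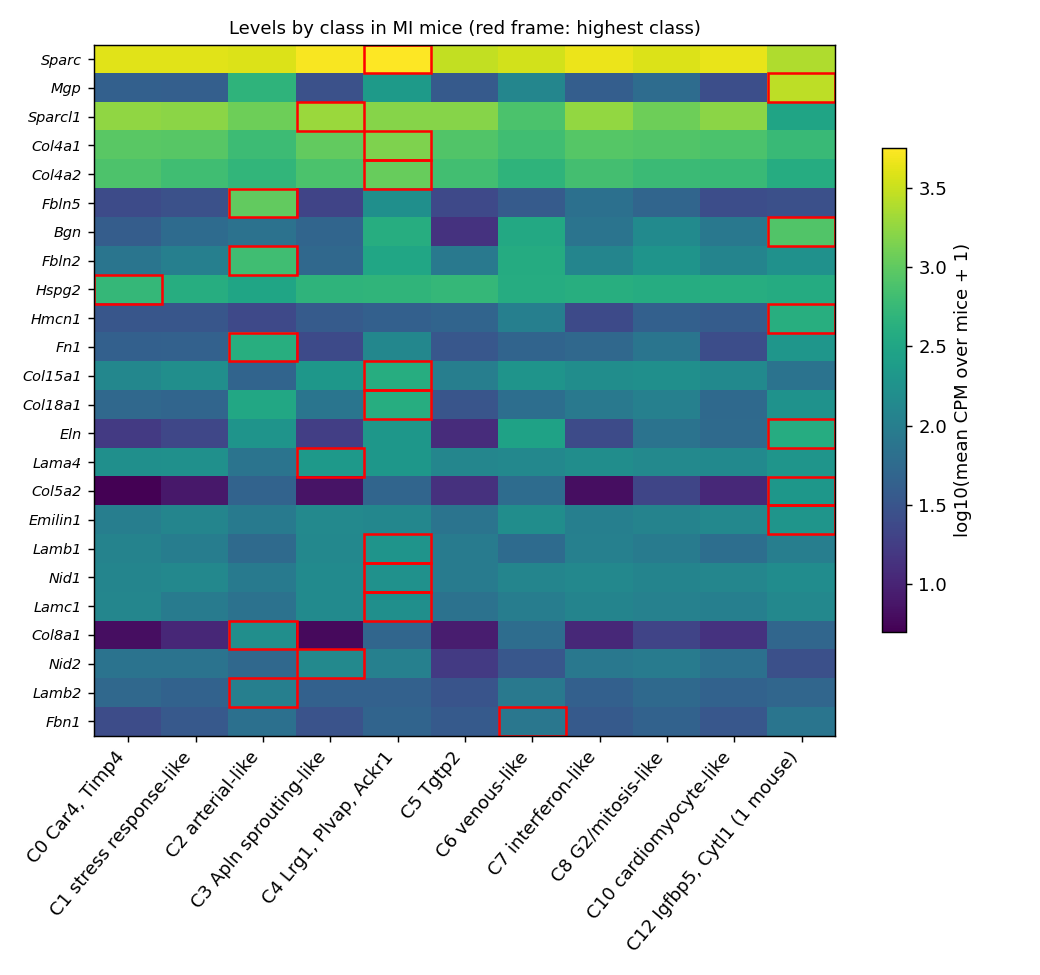
Mean level of 24 matrix genes (log10 of CPM + 1) in each cluster of MI mice, with a red frame around the highest cluster of each gene. Frames gather in C2 (Fbln5, Fbln2, Fn1, Col8a1, Lamb2), in C4 (Sparc, the type IV, XV and XVIII collagens, Lamb1, Lamc1, Nid1) and in C12, which rests on 1 mouse.

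To compare shares of cells at equal depth, each cell was thinned to 1000 UMIs, and the share of ECs with a UMI was taken in each mouse. Shallower cells were left out, 467 in healthy and 0 in MI mice. The share was higher in all 4 MI mice than in all 4 healthy mice for 19 of the 36 tested genes, and for 17.5% of all tested genes. Without thinning it was so for 35 of the 36, and for 79.8% of all tested genes. Sparc was found in 78.8% ± 3.12 (SD) of healthy and 93.3% ± 4.08 of MI ECs, against 91.6% and 99.3% before thinning. Col4a1 was found in 41.0% ± 5.77 and 54.4% ± 2.64. Col15a1 went from 3.63% ± 0.789 to 15.6% ± 3.29, Col18a1 from 2.54% ± 0.451 to 11.2% ± 2.40 and Bgn from 1.54% ± 0.320 to 9.59% ± 3.73, at this depth. Before thinning the shares were 8.69% and 42.5% for Col15a1, 5.72% and 32.04% for Col18a1 and 2.94% and 25.1% for Bgn, so the share of cells with a UMI depends on depth and does not limit how many cells express the gene. Sparcl1 was found in 69.7% ± 3.27 and 69.4% ± 3.58.

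As a reading of free RNA, the same shares were taken in leukocytes, that is cells with a UMI of Ptprc and none of Cdh5 and Kdr (322 in MI mice, median 5666 UMIs, against 4117 in MI ECs), and in cells with at least 3 UMIs of Dcn (129 in MI mice, median 6855 UMIs). In leukocytes of MI mice Sparc was found in 27.0% (95% interval 22.2 to 32.2%), Col4a1 in 5.59% (95% interval 3.35 to 8.69%), Col15a1 in 2.80% (95% interval 1.29 to 5.24%), Col18a1 in 1.86% (95% interval 0.687 to 4.01%) and Bgn in 3.11% (95% interval 1.5 to 5.64%), all below the MI ECs. In the 49 leukocytes of healthy mice Sparc was found in 6.12%, so its share was higher in MI there as well. For Col1a1, Col1a2 and Col3a1 the share of MI ECs was 0.140% ± 0.0694, 0.275% ± 0.0302 and 0.273% ± 0.144, and that of leukocytes 0.311% (95% interval 0.00786 to 1.72%), 0.621% (95% interval 0.0753 to 2.23%) and 0.621% (95% interval 0.0753 to 2.23%), so the EC shares were not above those of leukocytes. These rest on 1, 2 and 2 of the 322 leukocytes, and free RNA and low expression in ECs cannot be told apart at this depth. In Dcn-positive cells of MI mice the same genes were found in 38.0%, 38.8% and 41.9%. Fn1 was found in 7.67% ± 1.26 of MI ECs and 8.39% (95% interval 5.60 to 12%) of leukocytes, which include macrophages, known to express it, and Mgp in 6.93% ± 2.14 and 5.28% (95% interval 3.11 to 8.32%), so for neither gene was the share over all ECs above that of leukocytes beyond counting error.

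**Figure D4:**
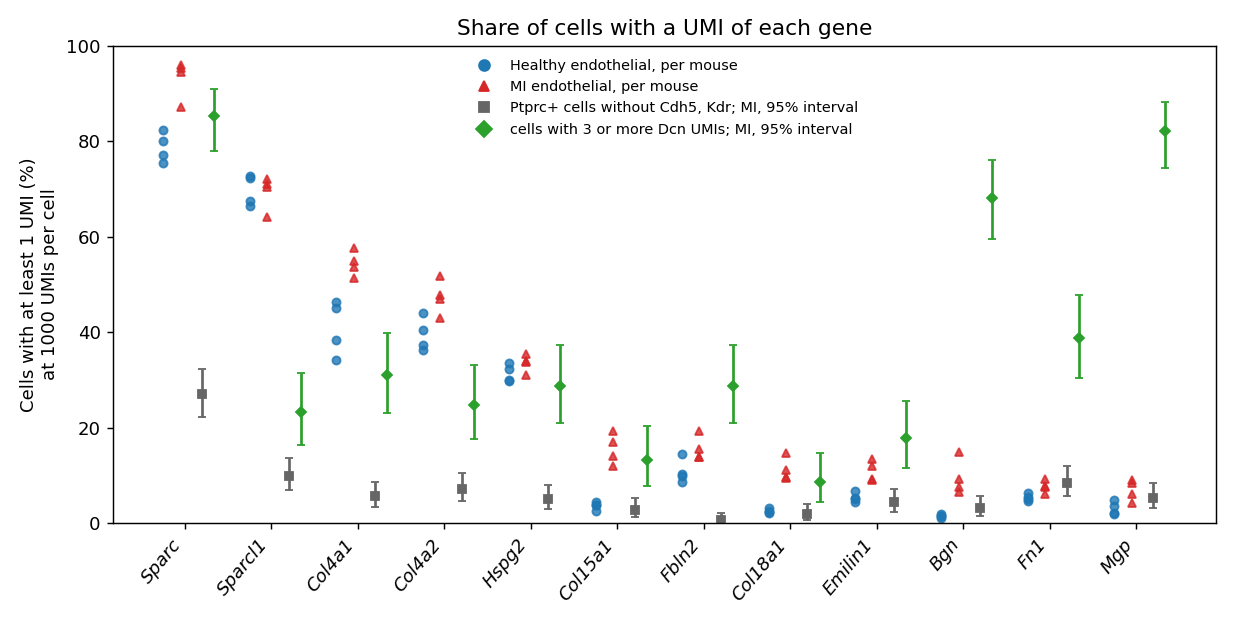
Percentage of cells with at least 1 UMI of 12 matrix genes at 1000 UMIs per cell, for ECs of each healthy mouse (circles) and MI mouse (triangles), and for pooled leukocytes (squares) and Dcn-positive cells (diamonds) of MI mice with 95% exact intervals. Sparc, Col4a1, Col15a1, Col18a1 and Bgn lie above the leukocytes in all MI mice, and Bgn and Mgp are far more frequent in Dcn-positive cells.

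Genes that process, bind or accompany these matrix proteins were counted in the same fit, with 3 lists that gave 44 calls in all, and 28 calls without cells that held a UMI of a mural or fibroblast marker. Of 26 tested genes for collagen modification, folding and crosslinking, 14 were higher and 2 lower, where 18.1% of all tested genes were higher and 18.0% lower. Fkbp10, a chaperone and prolyl isomerase of the endoplasmic reticulum that acts on procollagen, was at 7.99 ± 2.65 CPM in healthy and 47.0 ± 12.4 CPM in MI mice (log2 fold change 2.60 ± 0.25 (SE), adjusted p = 0.000191). Pcolce, which enhances cleavage of procollagen C-propeptides and is also on the fibroblast list, was at 44.5 ± 9.43 CPM in healthy and 67.5 ± 13.1 CPM in MI mice (log2 fold change 0.60 ± 0.18 (SE), adjusted p = 0.0243), and Sec23a, a coat protein of the vesicles that export collagen, at 19.3 ± 3.02 CPM in healthy and 28.9 ± 4.86 CPM in MI mice (log2 fold change 0.57 ± 0.15 (SE), adjusted p = 0.0165). P4ha1, a catalytic subunit of prolyl 4-hydroxylase, fell (log2 fold change -0.83 ± 0.16 (SE), adjusted p = 0.00354), as did the collagen galactosyltransferase Colgalt2 (log2 fold change -0.53 ± 0.12 (SE), adjusted p = 0.00806). Of 19 tested matrix receptors, 10 were higher and 3 lower. The fibronectin receptor subunit Itga5 rose, with 36.1 ± 6.67 CPM in healthy and 73.6 ± 6.51 CPM in MI mice (log2 fold change 1.02 ± 0.13 (SE), adjusted p = 0.000673). The collagen receptor subunit Itga1 fell (log2 fold change -0.91 ± 0.27 (SE), adjusted p = 0.0256), as did the laminin receptor subunit Itga6, with 311 ± 33.5 CPM in healthy and 235 ± 23.6 CPM in MI mice (log2 fold change -0.40 ± 0.10 (SE), adjusted p = 0.0137). Of 30 other matrix genes tested, 13 were higher and 2 lower. Mmrn2, which encodes an endothelial glycoprotein, rose (log2 fold change 0.24 ± 0.08 (SE), adjusted p = 0.0423), as did Ecm1 (log2 fold change 0.68 ± 0.15 (SE), adjusted p = 0.00766), and Ecm2 (log2 fold change -0.66 ± 0.13 (SE), adjusted p = 0.00489) and Ltbp4, a partner of latent TGF-beta (log2 fold change -0.43 ± 0.14 (SE), adjusted p = 0.0355), fell.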

How the data were processed

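Cardiac ECs of 4 healthy and 4 MI mice were profiled by droplet single-cell RNA sequencing. Per the labels and the study's methods, the authors processed reads with Cell Ranger on mm10, removed cells with fewer than 400 genes or over 20% mitochondrial UMIs, and used Seurat 2.3 in R 3.5.2. The deposited values are raw UMI counts per gene and cell. No doublet caller was run here. Copied cells were removed, counts were summed per mouse (4092079 to 21481013 UMIs), and groups were compared with edgeR 4.0.16 in R 4.3.3 (TMM, filterByExpr, quasi-likelihood test, two-sided, Benjamini-Hochberg adjusted p under 0.05 over all tested genes). Adjusted p-values come from this test unless stated. Cells were clustered (leidenalg 0.10.2, resolution 0.6) without the 63 genes, and clusters were named only from at least 3 fixed markers, so names may differ from those of the study. Clusters were tested where at least 3 mice per group had 20 cells. Shares used cells thinned to 1000 UMIs, with exact binomial intervals that cover counting error only. Gene positions are those of GRCm38. Values in every mouse are given for genes whose mean reached 50 CPM, for the 5 called genes that changed most upwards and the 5 at the other end of the order, and for genes called in a cluster against the direction in all ECs. From the other lists, the called genes with the 3 highest and 3 lowest changes at a mean of at least 20 CPM were considered. The members and lists were chosen with earlier results of these data known. Alternatives were DESeq2 1.42.0, no filter on low counts, copied cells kept, thinning, other cell rules, Xist as a covariate, other clusterings and each mouse left out, and, after the data had been seen, leaving out the clusters of other cell types, the cluster led by Tgtp2, and Healthy 227 with Healthy 228. On simulated counts, the all-EC test recovered 90.9% of genes changed by 1 and 100% of genes changed by 2 on the log2 scale among 12207 genes tested, and the test in C2 79.3% and 100% among 9002 genes. It also called 12 unchanged genes over all ECs and 8 in C2. All genes had the same dispersion there and the healthy mice were not split, so these shares do not hold for genes that vary more between mice.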

Additional observations from a re-analysis of the deposited data

Results flagged for a closer look

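In 46 sets of 4 values, those of 23 matrix genes in each group of mice, the highest or lowest mouse was set against Dixon's limit for 4 samples, and 4 values stood apart, where chance gives about 1 set in 20. Col3a1 was at 0.619 CPM in Healthy 239 and at 0 in the other healthy mice, a set in which any value above 0 stands apart. Col3a1 in MI 256 was at 4.54 CPM, above the other MI mice. Lamc1 in MI 244 was at 119 CPM, above MI mice that differed little among themselves. Fbln5 in Healthy 239 was at 173 CPM, and Fbln5 passed the threshold without that mouse.

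By a direct test, the effect of MI differed between C2 and C3 for 10 of 27 matrix genes and between C1 and C6 for 7 of 26. Among them are the 2 genes called in opposite directions. For Lamb1 the difference C2 minus C3 was 1.44 on the log2 scale, and for Mgp the difference C1 minus C6 was 2.33. Both pairs were picked for testing because of these opposite calls, so for these 2 genes the test is not independent of them.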

How the results depend on the processing

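The count of 21 matrix genes higher in MI over all ECs was 15 to 24 under the other settings and 18 to 25 when each mouse was left out. The count of 1 lower gene became 0 without Healthy 227 and 228 (1 gene at an unadjusted p under 0.05 by edgeR, and 1 by DESeq2 on all mice) and 2 without cells that held a UMI of a mural or fibroblast marker. It was 1 without any single mouse. Within clusters, 18 higher genes became 11 with thinning and 11 without those cells, and 12 to 18 when each mouse was left out. The 6 lower genes became 1 with thinning, 2 without those cells, 2 to 6 without a mouse, and 0 at a clustering resolution of 0.3, where C2, C7 and C8 were the clusters that could be fitted (edgeR, 3 genes at an unadjusted p under 0.05, DESeq2 not run there). The other matrix lists gave 44 calls, 28 without those cells and 37 to 49 without a mouse. The share of cells with a UMI was above all healthy mice for 19 genes, for 35 unthinned (79.8% of all tested genes), and for 19 to 24 without a mouse. Genes with a cluster at 50 CPM or more and at 4 times the median cluster or more, over both groups, were 10, and 8 to 10 in other clusterings. For 5 of the 10 (Bgn, Col5a2, Eln, Hmcn1 and Mgp) that cluster was C12, which rests on 1 library. The cause of these changes was not tested. Values near 0 that did not pass the threshold changed sign: Hspg2 was -0.070 without Healthy 227 and 228, and -0.016 to 0.090 without a mouse. Sparcl1 was 0.0023 in DESeq2, 0.034 without the cluster led by Tgtp2, 0.013 with thinning, 0.10 without cells with a mural or fibroblast UMI, and -0.062 to 0.038 without a mouse. Lama4 was 0.030 without those cells. With copied cells kept, 21 genes were higher, 20 of them shared, with Col4a2 gained and Col8a1 lost. Genes under about 1 CPM in healthy mice rest on few UMIs, and the lower healthy depth limits their precision. No paired analysis was possible because the groups share no replicate numbers.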
